A study of Mus musculus with 3 samples.

Results

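The promoters of 10 mouse germline genes were examined in MethylRAD data from embryonic stem cells (ESCs) and their differentiated descendants. The genes were chosen by name from the 21938 protein-coding genes of the GENCODE M21 annotation (GRCm38 assembly). They were Dazl, Ddx4, Sycp1, Sycp3, Hormad1, Mael, Asz1, Tdrd1, Slc25a31 and Stk31. All sites of the sequence CCGG in a gene or within 5 kb of it were taken, and a promoter was the region within 1 kb of any annotated start site of the gene. This gave 322 reference CCGG motifs, of which 93 lay in promoters, 165 in gene bodies and 64 in flanks. Further, 1 listed row of Ddx4 had no CCGG in the reference.

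Germline genes are transcribed in germ cells and kept silent in the cells of the body. Most CpG-rich promoters of the mouse genome stay free of DNA methylation in every cell type, whereas many germline genes have CpG-rich promoters that acquire methylation around implantation and keep it in somatic lineages. A variant Polycomb complex that carries E2F6 and the E-box binding proteins MGA and MAX, together with the de novo methyltransferases, is known to act at such promoters. The files held DNA methylation reads only, so neither the transcripts of these genes nor the identity of the cells was measured here.

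E14Tg2A, an ESC line from mouse, was the source of the undifferentiated library, and its medium held leukemia inhibitory factor. The untreated library came from the same line on day 7 after withdrawal of this factor and addition of retinoic acid. The treated library was from the same differentiation on day 7 with 3 mM pargyline, an inhibitor of the histone demethylase LSD1. Each condition had 1 library. Differences could therefore not be set against a spread between replicates, no test between conditions was made, and the effects of culture, library and condition cannot be told apart. All intervals are 95% intervals for counting error alone. Those of read sums and ratios take reads as independent, and those of listed shares take motifs as independent. PCR copies were not separated from independent fragments, and motifs of the same promoter may vary together, so the intervals can be too narrow.

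MethylRAD sequences the short fragments that the enzyme FspEI releases around a methylated or hydroxymethylated cytosine, and the reads do not tell these apart. An unmodified CCGG site releases no fragment of its own. It can still be counted when it lies in a fragment released at a modified cytosine nearby. A site was listed by the authors when it had at least 5 reads, and a motif missing from a list therefore had under 5 reads. The lists held 870345, 882955 and 892366 CCGG sites and 31614085, 36654600 and 25767119 CCGG reads in the undifferentiated, untreated and treated libraries. Reads were scaled to 1000000 CCGG reads of their list (scaled reads), and in this unit 5 reads corresponded to 0.158, 0.136 and 0.194. The CCGG reads made up 62.0%, 49.7% and 38.3% of the mapped reads of the 3 libraries. Scaling to mapped reads, as in the deposited RPM values, would therefore lower every log2 ratio to the undifferentiated library by 0.32 (untreated) or 0.69 (treated). Which scaling is closer to the methylation of the cells was not tested.

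The sequences upstream of the start sites are shown for 5 of the genes, because the CCGG sites read in this work lie in them. They are RefSeq promoter sequences of GRCm38.p6, for which all 10 genes had an entry, trimmed at the first annotated start. Capitals mark CCGG, the E-box CACGTG and the E2F6 motif GCGGGAA or its reverse complement TTCCCGC. The stretches are chr3:102936101-102936350 (minus strand), chr3:95559427-95559676 (plus strand), chr1:166238748-166238994 (minus strand), chr3:40708621-40708854 (plus strand) and chr6:18109062-18109311 (minus strand).
Sycp1: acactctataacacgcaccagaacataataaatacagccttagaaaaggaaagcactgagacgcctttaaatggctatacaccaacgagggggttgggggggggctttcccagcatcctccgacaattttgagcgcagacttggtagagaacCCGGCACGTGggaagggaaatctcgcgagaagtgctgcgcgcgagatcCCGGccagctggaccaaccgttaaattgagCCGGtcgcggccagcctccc
Hormad1: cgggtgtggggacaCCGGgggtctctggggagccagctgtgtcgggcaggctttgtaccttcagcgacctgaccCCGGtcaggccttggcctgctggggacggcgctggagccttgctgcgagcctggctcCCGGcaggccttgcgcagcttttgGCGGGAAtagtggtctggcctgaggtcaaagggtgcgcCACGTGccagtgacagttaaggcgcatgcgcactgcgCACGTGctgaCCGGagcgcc
Mael: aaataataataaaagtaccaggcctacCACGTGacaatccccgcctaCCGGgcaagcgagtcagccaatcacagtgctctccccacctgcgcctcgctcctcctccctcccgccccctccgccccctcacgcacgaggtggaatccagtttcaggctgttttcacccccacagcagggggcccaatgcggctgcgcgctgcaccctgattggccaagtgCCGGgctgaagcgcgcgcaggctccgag
Slc25a31: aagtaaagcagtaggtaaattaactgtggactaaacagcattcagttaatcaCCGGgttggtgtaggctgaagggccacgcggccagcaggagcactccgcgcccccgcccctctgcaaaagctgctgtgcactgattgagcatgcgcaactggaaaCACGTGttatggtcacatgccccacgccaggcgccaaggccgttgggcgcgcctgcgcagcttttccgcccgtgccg
Asz1: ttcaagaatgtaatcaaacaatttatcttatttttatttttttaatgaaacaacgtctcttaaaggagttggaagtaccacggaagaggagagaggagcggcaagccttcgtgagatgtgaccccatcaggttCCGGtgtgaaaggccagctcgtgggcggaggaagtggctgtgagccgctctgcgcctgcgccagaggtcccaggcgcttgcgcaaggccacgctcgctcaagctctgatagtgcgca

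In the Sycp1 stretch, the CCGG 96 bp upstream of the start directly adjoins the E-box. It had 54, 65 and 46 reads in the undifferentiated, untreated and treated libraries, and its sum over the libraries was the highest of the Sycp1 promoter sites. Of the 4 CCGG in the Hormad1 stretch, the first had 0, 17 and 16 reads and the second 13, 9 and 12 reads, in the same order of libraries. The third was listed in the untreated library alone, with 9 reads, and the last, which lies between an E-box and the start, had 5, 9 and 0 reads. The site of the Slc25a31 stretch had 33, 42 and 36 reads and that of the Asz1 stretch 14, 11 and 9 reads, so both were listed in all 3 libraries.

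Over windows of 300 bp (250 bp upstream and 50 bp downstream of the RefSeq start), the E-box CACGTG was found in 8 of the 10 promoters and in 7.15% of 32817 RefSeq promoters. The E2F6 motif, searched as GCGGGAA on both strands, was found in 4 of the 10 and in 4.6% of all. The same 4 promoters, those of Ddx4, Sycp3, Hormad1 and Slc25a31, held both motifs, against 0.457% of all promoters and 1.29% of 7217 promoters with high CpG content. The windows of Dazl and Asz1 held neither. A match is only a description of the letters in these windows. High CpG content meant that the ratio of observed to expected CpG exceeded 0.75 and GC bases exceeded 55%. It was read in the 300 bp window itself for these RefSeq promoters, and everywhere else in the 500 bp around the main start, the start of the transcript with the longest coding sequence. In the latter window it applied to 7 of the genes, whereas Sycp3, Asz1 and Hormad1 had intermediate CpG content.

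The promoters of the 10 genes had many of their CCGG motifs listed as methylated before differentiation. Of the 93 promoter motifs, 59.1% (95% Wilson interval 49.0 to 68.6) were listed in the undifferentiated library. The share was 73.1% (63.3 to 81.1) in the untreated and 75.3% (65.6 to 82.9) in the treated library. The corresponding shares over the promoters of all protein-coding genes were 16.0%, 21.7% and 25.5%, and over the 7466 genes with a high CpG start 7.77%, 13.5% and 16.1%. In every library the interval of the 10 genes was thus far above both. A larger list could by itself add motifs. With counts thinned to the smallest CCGG total, the shares of the 10 genes were 52.7%, 65.6% and 75.3%. With a cutoff of 10 reads they were 40.9%, 55.9% and 50.5%.

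Taken gene by gene, at least 50% of the promoter motifs were listed for 7 genes in the undifferentiated library, where 17.2% of 15969 protein-coding promoters with at least 3 motifs met the same limit. The number was 9 of 10 in the untreated library, against 21.0% of all promoters. In the treated library it was again 9 of 10, against 25.7%. Among promoters with high CpG content, 1.64%, 3.63% and 5.55% met the limit. The lowest shares of the 10 genes were those of Ddx4 (30.0%) in the undifferentiated, Dazl (41.2%) in the untreated and Stk31 (33.3%, 1 of 3 motifs) in the treated library. Sycp3 had all 11 promoter motifs listed in both libraries from day 7, and Hormad1 all 9 in the untreated library.

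The motifs around the start sites themselves, where few motifs of other CpG-rich genes were listed, were mostly listed in the 10 genes. Within 250 bp downstream of the main start, 55.2%, 75.9% and 89.7% of 29 motifs of the 10 genes were listed in the undifferentiated, untreated and treated libraries. In the same window, 1.37%, 7.29% and 7.92% of the motifs of genes with a high CpG start were listed. Within 250 bp upstream, the shares of the 10 genes were 73.3%, 93.3% and 73.3% of 15 motifs, against 1.83%, 6.97% and 8.9%. The single motif nearest the main start was 2 to 128 bp away from it in the 10 genes, and it was listed in 6, 8 and 8 of them. For 7463 genes with a high CpG start, the nearest motif was listed in 1.39%, 6.55% and 7.09%. Between 500 and 1000 bp downstream, the shares were lower and the intervals wide. Of 17 motifs there, 41.2% (21.6 to 64.0) were listed in the undifferentiated, 47.1% (26.2 to 69.0) in the untreated and 29.4% (13.3 to 53.1) in the treated library, against 11.4%, 17.4% and 21.3% for genes with a high CpG start. The interval of the treated library held the share of those genes, and the other 2 intervals lay above it.

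**Figure D1:**
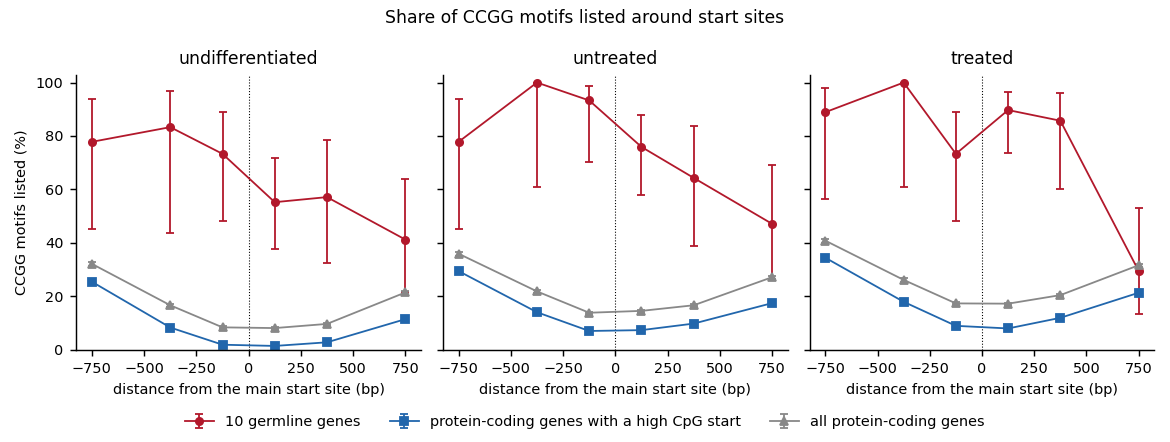
Share of reference CCGG motifs listed (percent, y axis) by distance from the main start site (bp, x axis, downstream positive, points at the middle of each window) in the 3 libraries, for the 10 germline genes (circles), genes with a high CpG start (squares) and all protein-coding genes (triangles), with 95% Wilson intervals. The dip around the start in genes with a high CpG start reached 1.37% of motifs in the undifferentiated library, against 55.2% for the 10 germline genes in the same window. The share of the 10 genes also fell there, from 83.3% between 500 and 250 bp upstream, and was 41.2% between 500 and 1000 bp downstream.

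Of the 93 promoter motifs, 47 were listed in all 3 libraries and 13 in none. Relative to the undifferentiated list, 19 motifs were added in the untreated and 19 in the treated library, and 13 of these were added in both. This is 50% of the 38 motifs not listed in the undifferentiated library, against 9.75% (untreated) and 14.2% (treated) of 159724 such promoter motifs of all protein-coding genes. These groups are not alike, since 59.1% of the promoter motifs of the 10 genes were listed in the undifferentiated library, against 16.0% over all protein-coding genes. No promoters with a like share were compared, so these shares do not show a gain particular to the 10 genes. Conversely, 6 motifs of the undifferentiated list were missing from the untreated and 4 from the treated one, or 10.9% and 7.27% of 55, against 15.6% and 14.9% of 30351. Only 2 motifs, 1 in Mael and 1 in Tdrd1, were listed in the undifferentiated library alone. The untreated and treated comparisons share the undifferentiated library, so a chance low count there counts in both. A further limit is that motifs within 10 bp of each other can be read from the same fragments. There were 5 such pairs in the promoters. Those of Ddx4 and Slc25a31 had equal reads in all 3 libraries, those of Sycp1 and Tdrd1 in all but the treated one, and that of Dazl was unlisted. Leaving out 1 motif of each pair gave shares of 60.2%, 72.7% and 76.1%.

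**Figure D2:**
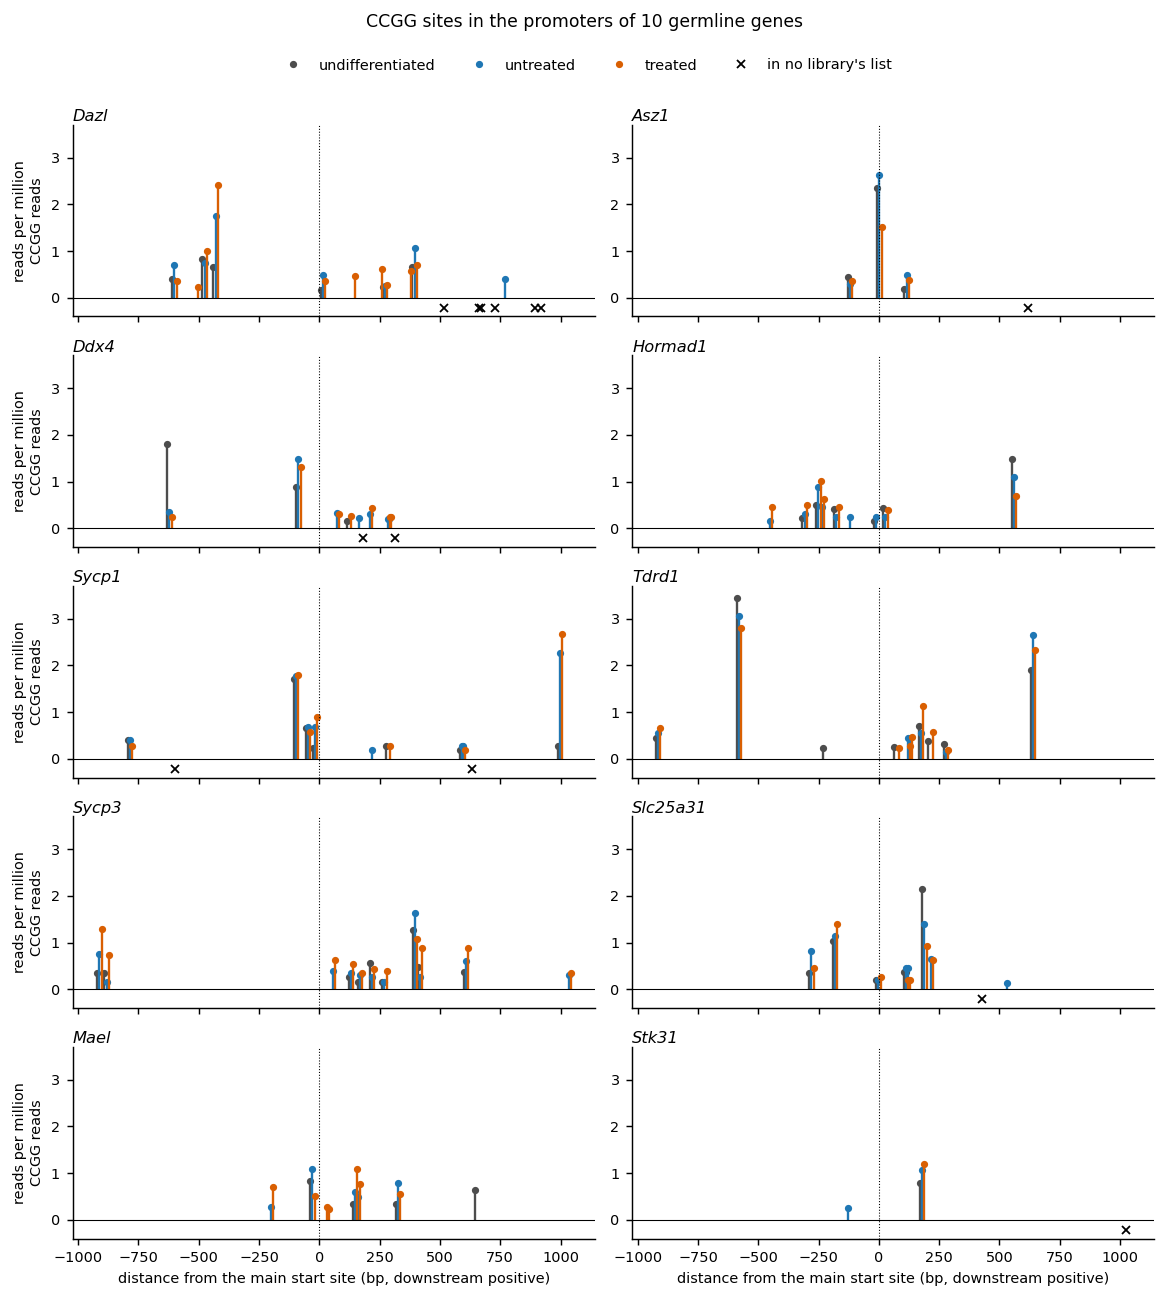
Reads per 1000000 CCGG reads (y axis) at each promoter CCGG site of the 10 genes, by distance from the main start site (bp, x axis), in the undifferentiated, untreated and treated libraries, which are drawn side by side. Crosses are motifs listed in no library, and 1 Tdrd1 site at a downstream start is outside the panel. The tallest sites are those of Tdrd1, with 3.45 in the undifferentiated library, and the crosses of Dazl cluster downstream of its main start.

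Dazl and Ddx4 are early germ cell genes that encode RNA-binding proteins: DAZL binds messenger RNAs and promotes their translation, and DDX4 (Vasa homolog) is a DEAD-box helicase of germ granules. Dazl had the most promoter motifs of the 10 genes (17), and it has a second annotated start within its first intron. Its promoter reads were 93, 198 and 180 in the undifferentiated, untreated and treated libraries, or 2.94, 5.40 and 6.99 scaled reads. Both day 7 libraries were above the undifferentiated one, 1.84-fold (1.43 to 2.38) and 2.37-fold (1.84 to 3.08). The site with the most reads, chr17:50294065-50294068, lies 430 bp upstream of the main start and had 21, 64 and 62 reads. The site nearest the main start, 16 bp downstream in the 5′ UTR (chr17:50293619-50293622), had 5, 18 and 9 reads. A different pattern was seen at the second start. The 7 motifs from 176 bp downstream to 227 bp upstream of it were unlisted in all libraries, apart from 1 with 15 reads in the untreated library. Methylation was thus read around the main start of Dazl, whereas around the intronic one it was largely not detectable at this depth.

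Ddx4 had promoter reads of 90, 112 and 78, or 2.85, 3.06 and 3.03 scaled reads, and the intervals of its ratios to the undifferentiated library held 1. Per mapped read, the log2 ratio of the treated library was -0.61 (-1.06 to -0.15). This sum hid opposite values along the promoter. The site 622 bp upstream (chr13:112653096-112653099) had 57, 13 and 6 reads. The site 87 bp upstream (chr13:112652561-112652564) had 28, 54 and 34 reads. Of the 8 motifs downstream of the main start, 1 was listed in the undifferentiated library with 5 reads. In the untreated library 5 of these motifs were listed and in the treated library again 5, each with 6 to 12 reads. The one nearest the main start, 72 bp downstream in the 5′ UTR (chr13:112652402-112652405), had 0, 12 and 8 reads. With the promoter limited to 500 bp, the log2 ratio of Ddx4 to the undifferentiated library was 1.37 (0.79 to 1.99) in the untreated and 1.42 (0.81 to 2.06) in the treated library.

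Sycp1, Sycp3 and Hormad1 encode proteins of meiotic chromosomes. SYCP1 forms the transverse filaments of the synaptonemal complex, SYCP3 belongs to its axial elements, and HORMAD1 binds unsynapsed chromosome axes. The Sycp1 promoter had 125, 240 and 172 reads, or 3.95, 6.55 and 6.67 scaled reads. A single site decided this difference. The site chr3:102935101-102935104, in the first intron and 998 bp downstream of the start, had 9, 83 and 69 reads. Within 500 bp of the start, the log2 ratio to the undifferentiated library was 0.21 (-0.19 to 0.62) in the untreated and 0.30 (-0.14 to 0.73) in the treated library, so no difference was detectable there. The 3 sites of the stretch shown above were listed in every library, and of these the one nearest the start, 18 bp upstream (chr3:102936117-102936120), had 7, 25 and 23 reads.

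The start of Sycp3 lies inside Chpt1, a gene on the opposite strand. Its promoter had 125, 191 and 195 reads, or 3.95, 5.21 and 7.57 scaled reads, and 9, 11 and 11 of its 11 motifs were listed. The site nearest the main start, 56 bp downstream in the 5′ UTR (chr10:88459624-88459627), had 0, 14 and 16 reads. The site with the most reads, in the first intron (chr10:88459965-88459968), had 40, 60 and 28 reads and was lowest in reads in the treated library. A pair of sites 912 and 882 bp upstream had 11, 28 and 33 and 11, 6 and 19 reads. Sycp3 was 1 of 2 genes with a ratio of treated to untreated above 1 beyond counting error (1.45-fold, 1.18 to 1.78), a call lost per mapped read (log2 ratio 0.16, -0.13 to 0.46) and within 500 bp (0.35, -0.03 to 0.73).

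Hormad1 had 102, 142 and 107 promoter reads, or 3.23, 3.87 and 4.15 scaled reads. The site with the most reads lies in the first intron, 561 bp downstream (chr3:95560238-95560241), and had 47, 40 and 18 reads. The upstream sites differed among themselves. The one 235 bp upstream of the nearest start (chr3:95559441-95559444) had 0, 17 and 16 reads, whereas the one 175 bp upstream had 13, 9 and 12 reads and the one nearest the start, 9 bp upstream, 5, 9 and 0 reads. Within 500 bp, the log2 ratio of Hormad1 to the undifferentiated library was 0.68 (0.19 to 1.18) in the untreated and 0.99 (0.49 to 1.50) in the treated library. In the full promoter it was 0.26 and 0.36, with intervals that held 0.

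Mael, Asz1 and Tdrd1 belong to the piRNA pathway, in which small RNAs bound to PIWI proteins silence transposons in germ cells. MAEL acts in the repression of transposons, ASZ1 links germ granules to mitochondria, and TDRD1 is a Tudor protein that binds PIWI proteins. The Mael promoter had 68, 119 and 106 reads, or 2.15, 3.25 and 4.11 scaled reads. A coding exon site 161 bp downstream of the start (chr1:166238582-166238585) had 0, 18 and 20 reads and its neighbour 13 bp away 11, 22 and 28 reads. The site 198 bp upstream, in the stretch shown above, had 0, 10 and 18 reads. In contrast, an intronic site 653 bp downstream had 20 reads in the undifferentiated library and was unlisted in the other two. The first exon site 21 bp downstream of the start was listed in the treated library alone, with 7 reads, and the site with the most reads, 26 bp upstream, had 26, 40 and 13 reads.

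Asz1 had 4 promoter motifs, and most of its promoter reads came from a single site 2 bp downstream of the start, in the 5′ UTR (chr6:18109054-18109057). This site had 74, 96 and 39 reads, or 2.34, 2.62 and 1.51 scaled reads. The whole promoter had 94, 125 and 58 reads, or 2.97, 3.41 and 2.25 scaled reads. The treated library was below the untreated one beyond counting error (0.66-fold, 0.475 to 0.908). Against the undifferentiated library its log2 ratio was -0.40 (-0.90 to 0.09). In the body, by contrast, the treated library was above the untreated one (1.67-fold, 1.35 to 2.06). The body of Asz1 had 2.34, 4.58 and 7.65 scaled reads. Its intronic sites chr6:18100161-18100164 and chr6:18080531-18080534 had 9, 42 and 52 and 9, 51 and 25 reads. The latter site was thus lower in the treated than in the untreated library, as the promoter was.

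Tdrd1 had the highest promoter level of the 10 genes in every library, also per motif. Its 11 motifs had 336, 386 and 288 reads, or 10.6, 10.5 and 11.2 scaled reads. The ratios to the undifferentiated library were 0.991 (0.854 to 1.15) and 1.05 (0.895 to 1.23), but this depended on the scaling. Per mapped read, the log2 ratios were -0.33 (-0.55 to -0.12) and -0.62 (-0.85 to -0.39). The reads were concentrated at 3 sites outside the CpG-rich core. These were chr19:56825694-56825697, 514 bp upstream of the first start, with 109, 112 and 72 reads, a first-intron site with 60, 97 and 60 reads, and a site 684 bp downstream of the last of its 4 starts with 94, 100 and 65 reads. Between 62 and 266 bp downstream of the nearest start, the 6 sites had 0 to 29 reads. The one nearest the main start (chr19:56826347-56826350) had 8, 0 and 6 reads. A pair of sites 7 bp apart had 0, 16 and 7 and 0, 16 and 12 reads, and the other 4 sites had fewer scaled reads in the untreated than in the undifferentiated library. Within 500 bp, the treated library was above the untreated one by 0.89 (0.37 to 1.41) on the log2 scale. Against the undifferentiated library, the log2 ratio there was -0.26 (-0.81 to 0.29) in the untreated and 0.62 (0.11 to 1.14) in the treated library.

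Slc25a31 encodes the ADP/ATP carrier of the mitochondria of male germ cells, and Stk31 a putative kinase with a Tudor domain that is found in germ cells. The Slc25a31 promoter had 142, 193 and 105 reads, or 4.49, 5.27 and 4.08 scaled reads. The treated library was below the untreated one (0.774-fold, 0.604 to 0.987). A pair of sites in the first coding exon, 28 bp apart, had opposite patterns, since chr3:40709043-40709046 had 68, 51 and 24 reads and chr3:40709071-40709074 had 0, 24 and 16 reads. The site 2 bp upstream of the start had 6, 7 and 7 reads. Stk31 had 3 promoter motifs, the fewest of the 10, and 25, 48 and 31 reads, or 0.791, 1.31 and 1.20 scaled reads. Its intron site 148 bp downstream of the nearest start (chr6:49395782-49395785) gave 25, 39 and 31 of these. The site 128 bp upstream was listed in the untreated library alone, with 9 reads. The last motif, 992 bp downstream, lies in a sequence of 32 bp with 874 copies at CCGG motifs of the genome, and reads there may not map uniquely.

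**Figure D3:**
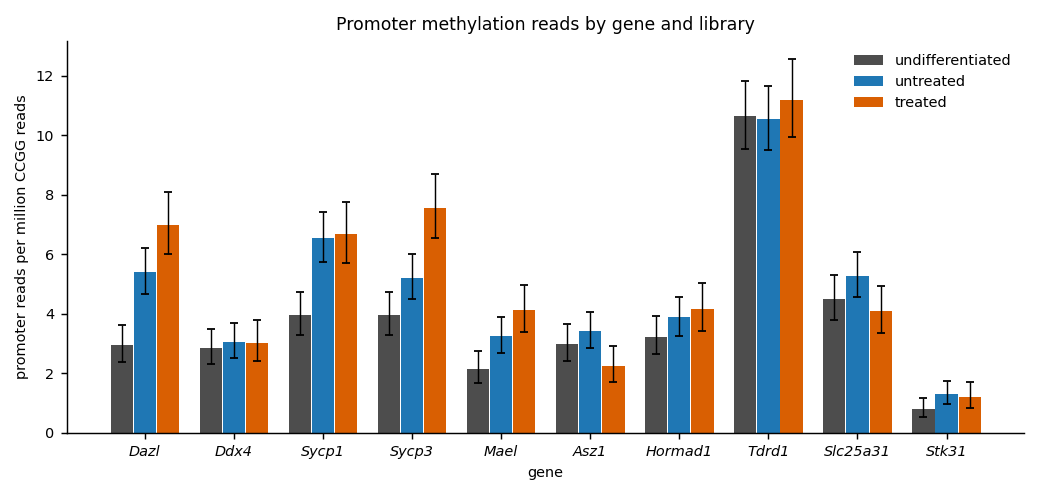
Promoter reads per 1000000 CCGG reads (y axis) of the 10 genes (x axis) in the undifferentiated, untreated and treated libraries, with exact 95% Poisson intervals as error bars (counting error only). Tdrd1 stood highest in all libraries (10.6, 10.5 and 11.2) and Stk31, with 3 motifs, lowest (0.791, 1.31 and 1.20).

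Promoter reads were next compared between conditions. Summed over the genes, scaled promoter reads were 38.0 (35.8 to 40.2) in the undifferentiated, 47.9 (45.6 to 50.1) in the untreated and 51.2 (48.5 to 54.1) in the treated library. The log2 ratio was 0.33 (0.23 to 0.44) for untreated over undifferentiated and 0.43 (0.32 to 0.55) for treated over undifferentiated. For treated over untreated it was 0.10 (-0.01 to 0.20). These directions depended on the scaling. Per mapped read, the 3 ratios were 0.02 (-0.09 to 0.12), -0.26 (-0.38 to -0.15) and -0.28 (-0.38 to -0.17).

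Other promoters differed in the same direction, and the distance between the 10 genes and other promoters is the same under any scaling of whole libraries. The median log2 ratio of the 10 genes was 0.33 for untreated over undifferentiated, against 0.21 for the promoters of all protein-coding genes with at least 30 reads and 0.47 for those with high CpG content. For treated over undifferentiated, it was 0.49, against 0.52 and 0.91. For treated over untreated, it was 0.06, against 0.30 and 0.42. Each of the 10 promoters had at least 100 reads over the 3 libraries. Among the 7983 promoters with at least 100 reads, a limit chosen after seeing the data, the medians were 0.11, 0.31 and 0.20, and among the 2074 of these with high CpG content 0.21, 0.53 and 0.30.

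No promoter of the 10 genes was past 2-fold in the untreated library, where 22.2% of 12790 promoters were 2-fold higher and 8.23% were 2-fold lower than in the undifferentiated library. In the treated library, Dazl alone was past 2-fold, upwards, against 34.9% of promoters higher and 6.57% lower. Between the treated and untreated libraries no gene was past 2-fold, against 20.8% of promoters higher and 4.11% lower. Among promoters with at least 100 reads, 11.6%, 22.2% and 11.6% were 2-fold higher in the 3 comparisons. Dazl was not past 2-fold when reads were scaled to mapped reads (log2 ratio 0.55) or when absent rows were set at 4 reads (0.90). The number of the 10 promoters that were 2-fold higher rose to 2 in the untreated and 3 in the treated library with the promoter within 500 bp or with a cutoff of 10 reads, and it was also 3 in the treated library on the upstream side alone. All promoters moved with these settings too. Within 500 bp, 27.6% and 41.4% of them were 2-fold higher in the untreated and treated libraries, with a cutoff of 10 reads 19.6% and 28.7%, and on the upstream side 33.1% in the treated library.

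The genes differed among themselves. Dazl, Sycp1, Sycp3 and Mael had log2 ratios above 0 beyond counting error in both comparisons with the undifferentiated library, with 0.88 and 1.25 for Dazl, 0.73 and 0.76 for Sycp1, 0.40 and 0.94 for Sycp3 and 0.59 and 0.94 for Mael. Taken comparison by comparison, 5 of the 10 genes were above 0 in this way in the untreated and 4 in the treated comparison. Among the 7983 promoters with at least 100 reads, 29.5% and 42.0% were, so the treated count is near the share of all promoters. Below 0 beyond counting error were 18.9% and 15.0% of those promoters and 0 of the 10 genes. The share of promoters above 0 in both comparisons was not counted. The ratios of these 4 genes were positive under each of the 12 settings tried, but their intervals did not stay above 0. Those of Dazl did under all 11 alternatives. Per mapped read, the intervals of Sycp3 (0.08 and 0.24) and Mael (0.27 and 0.24) held 0 in both comparisons and that of Sycp1 (0.06) in the treated one. Sycp1 also lost both calls within 500 bp, and the untreated value of Sycp3 lost its call under 5 of the 11 alternatives. Stk31 joined them in the untreated library alone (0.73, 0.00 to 1.49), and its interval held 0 under 4 of 10 alternatives. In the other genes, Hormad1, Ddx4, Tdrd1, Asz1 and Slc25a31, the intervals of both ratios held 0. Per mapped read, 4 of these were below 0 beyond counting error in the treated library, Ddx4 at -0.61 (-1.06 to -0.15), Tdrd1 at -0.62 (-0.85 to -0.39), Asz1 at -1.10 (-1.59 to -0.61) and Slc25a31 at -0.84 (-1.21 to -0.46). In the untreated library Tdrd1 alone was, at -0.33 (-0.55 to -0.12). Within 500 bp, however, the intervals of Ddx4 and Hormad1 were above 0 in both comparisons. That of Tdrd1 was above 0 in the treated one (0.62, 0.11 to 1.14). Between the treated and untreated libraries, Dazl (0.37, 0.07 to 0.67) and Sycp3 (0.54, 0.24 to 0.83) were above 0 and Asz1 (-0.60, -1.07 to -0.14) and Slc25a31 (-0.37, -0.73 to -0.02) below it. Of the promoters with at least 100 reads, 32.6% were above and 9.52% below 0 in the same way. Per mapped read, Dazl was at -0.00 (-0.30 to 0.29) and Sycp3 at 0.16 (-0.13 to 0.46) in that comparison, while Asz1 and Slc25a31 were at -0.98 and -0.75. In this scaling Sycp1 (-0.35, -0.64 to -0.06) and Tdrd1 (-0.29, -0.52 to -0.07) were also below 0. The interval of Slc25a31 held 0 under 4 of the 11 alternatives, among them a promoter of 500 bp (-0.33, -0.69 to 0.02) and absent rows at 4 reads (-0.29, -0.64 to 0.05). Asz1 was at 0.22 (-1.23 to 1.63) when the promoter was limited to the upstream side, which leaves out its main site.

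**Figure D4:**
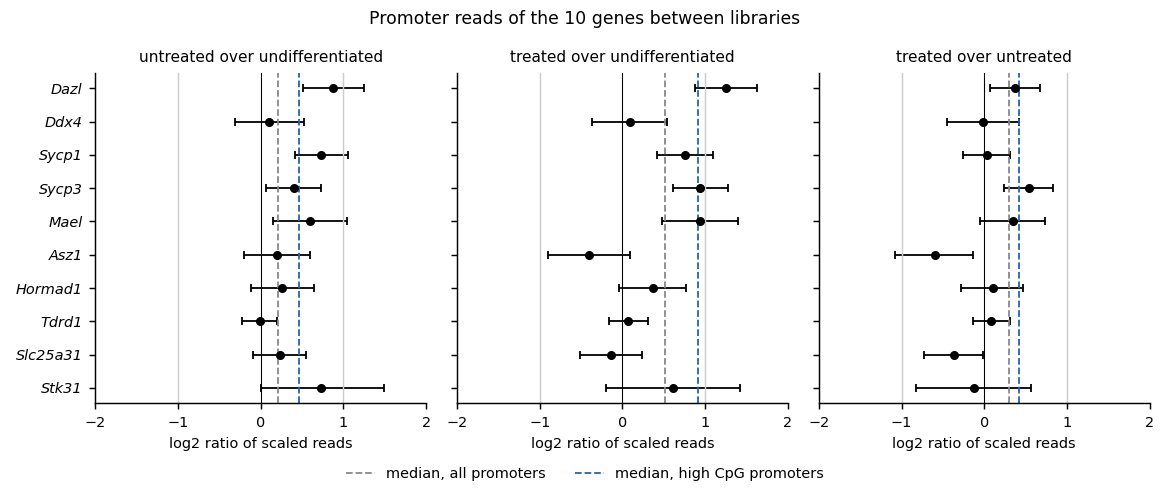
Log2 ratio of scaled promoter reads (x axis) of each of the 10 genes (y axis) for untreated over undifferentiated, treated over undifferentiated and treated over untreated, with exact 95% conditional intervals (counting error only). Dashed lines are the medians of all protein-coding promoters (grey) and of those with high CpG content (blue), and grey lines mark 2-fold. The points of Dazl in the comparisons with the undifferentiated library (0.88 and 1.25) are the highest, and the first and second panels share that library.

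At single promoter sites with at least 30 reads over the 3 libraries, an absent row was taken as 4 reads. Of 45 such sites, 12 were 2-fold higher and 3 were 2-fold lower in the untreated than in the undifferentiated library, which is 26.7% and 6.67%, against 19.7% and 15.1% of 22796 promoter sites of all protein-coding genes. In the treated library 15 were higher and 3 lower (33.3% and 6.67%), against 27.9% and 13.9%. Between the treated and untreated libraries 3 were higher and 4 lower (6.67% and 8.89%), against 16.9% and 5.89%. The higher sites in the untreated library lay in 7 of the genes.

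Promoters were then compared with the bodies and flanks of the same genes within each library, where scaling has no part. Summed over the 10 genes, promoters had 0.805 (0.753 to 0.859) times as many reads per motif as bodies and flanks in the undifferentiated, 1.0 (0.948 to 1.06) times in the untreated and 1.10 (1.03 to 1.18) times in the treated library. For all protein-coding genes the ratio was 0.359, 0.389 and 0.444, and for those with a high CpG start 0.067, 0.0836 and 0.112. For genes with an intermediate CpG start, the class of 3 of the 10 genes, it was 0.756, 0.808 and 0.896, but a few very deep sites decided this value. Without sites above 10000 reads in any library, a step added after seeing the data, it was 0.163, 0.186 and 0.253, and that of all protein-coding genes 0.177, 0.193 and 0.239. The body motifs of these genes are partly repeats. For 72 motifs, 45 of them in Sycp1, the surrounding 32 bp occur more than once at CCGG motifs of the genome, so reads kept for unique mapping may be missing there, and only 2 of the 72 lie in promoters. Without such motifs the ratio of the 10 genes was 0.571 (0.534 to 0.610), 0.710 (0.671 to 0.751) and 0.777 (0.727 to 0.829). On the same footing and without the very deep sites, it was 0.162, 0.177 and 0.219 for all protein-coding genes, 0.148, 0.169 and 0.231 for those with an intermediate CpG start and 0.0626, 0.0781 and 0.105 for those with a high CpG start. With the very deep sites kept, the intermediate class was at 0.689, 0.737 and 0.817. Genes with a low CpG start, a class to which none of the 10 belongs, had 0.540, 0.544 and 0.608.

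With uniquely placed motifs alone, the same share of promoter and of body and flank motifs was listed in the undifferentiated library, 60.4% of 91 and 60.4% of 159. The shares were 73.6% and 65.4% in the untreated and 75.8% and 65.4% in the treated library, with intervals that overlapped. Bodies and flanks had 3672, 4307 and 2942 reads in all. In scaled reads, their log2 ratio summed over the genes was 0.02 (-0.05 to 0.08) for untreated and -0.02 (-0.10 to 0.05) for treated over undifferentiated, and per mapped read both would be lower by the shifts given above. The sum joined genes that went both ways. Of the 9 genes with reads there, 3 were above and 2 below 0 beyond counting error in the untreated library, and 4 above and 3 below in the treated library. Over 20370 protein-coding genes with at least 30 reads in bodies and flanks, 22.2% were above and 29.0% below in the untreated, and 23.6% and 30.3% in the treated library. The values ranged from -0.30 (Stk31) to 2.48 (Slc25a31) and from -0.34 (Sycp1) to 1.96 (Slc25a31).

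The genes fell on both sides of equal levels. Tdrd1 had more reads per unique motif in its promoter than outside it in all libraries, 1.54-fold (1.36 to 1.74), 1.52-fold (1.35 to 1.70) and 1.70-fold (1.49 to 1.95). Its low flanks decided this. Over all motifs, they had 0.175, 0.252 and 0.243 scaled reads per motif. The body had 0.967, 0.908 and 0.856, near the 0.966, 0.957 and 1.02 of the promoter. Slc25a31 had 5.26-fold more reads per unique motif in its promoter than outside (3.21 to 9.13) in the undifferentiated library. On day 7 Slc25a31 had 1.11-fold and 1.23-fold, with intervals that held 1. Its intronic site chr3:40712991-40712994 had 5, 63 and 17 reads. Asz1 went from 3.13-fold (2.35 to 4.18) over 2.26-fold (1.79 to 2.84) to 0.919-fold (0.676 to 1.23) in the treated library. In Ddx4 the promoter had 0.300, 0.311 and 0.364 times the level outside it, and in Sycp3 0.258, 0.406 and 0.556 times. The flanks of Sycp3, which lie in Chpt1, had all 7 motifs listed in each library, with 318, 301 and 236 reads. For Mael no unique motif lay outside the promoter, and its 2 other motifs had no reads.

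**Figure D5:**
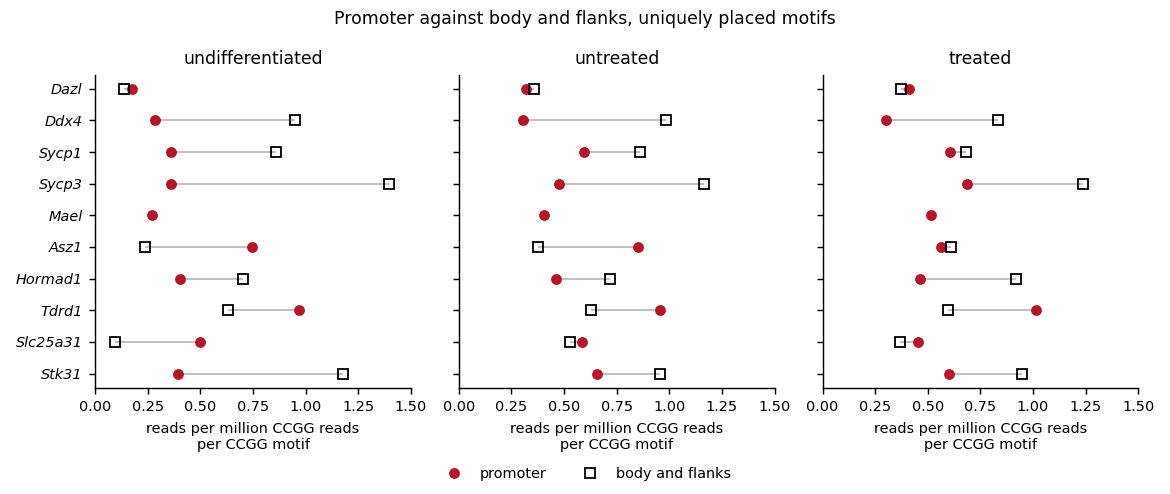
Reads per 1000000 CCGG reads per uniquely placed CCGG motif (x axis) in the promoter (filled circles) and in the body and flanks (open squares) of each gene (y axis) in the 3 libraries. Mael has no uniquely placed motif outside its promoter, and Asz1 changes from 0.743 in the promoter against 0.237 outside in the undifferentiated library to 0.563 against 0.613 in the treated library.

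Single sites in gene bodies also differed between libraries. The intronic sites of Stk31 at chr6:49411904-49411907 and of Tdrd1 at chr19:56842131-56842134 had 112, 50 and 23 and 99, 40 and 26 reads, so both were highest before differentiation. A further Tdrd1 site, chr19:56843573-56843576, had 37 reads in the undifferentiated library and was unlisted on day 7. Sites with the opposite pattern were chr19:56842967-56842970 in Tdrd1, with 26, 109 and 55 reads, and chr13:112643889-112643892 in Ddx4, with 29, 86 and 53 reads. All of these lie in introns.

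Within the promoters, motifs with few other CCG or CGG trinucleotides close by were listed more often. In the undifferentiated library, 79.1% of 43 promoter motifs with none within 16 bp were listed, 50% of 22 with 1, 38.5% of 13 with 2 and 33.3% of 15 with 3 or more. In the treated library the shares were 86.0%, 63.6%, 69.2% and 66.7%. Over all CCGG motifs of the genome the share in the undifferentiated library likewise went from 59.3% to 43.9%, 22.0% and 5.66%. The part of these neighbours in the listing of a site was not tested.

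A list of 50 other germline genes, most of them of meiosis and the piRNA pathway and none of them among the 10, was read in the same way, and all 50 were found. Of their 354 promoter motifs, 52.5% (47.3 to 57.7), 58.2% (53.0 to 63.2) and 58.8% (53.6 to 63.8) were listed in the undifferentiated, untreated and treated libraries. These shares were above those of all protein-coding genes. The interval overlapped that of the 10 genes in the undifferentiated library and lay below it on day 7, by a narrow margin in the untreated library. These intervals take motifs of the same gene as independent. By gene, the median share listed was 66.7% in each library, against 66.7%, 72.7% and 76.4% for the 10 genes. At least 50% of motifs were listed for 19, 22 and 24 of the 33 genes with at least 5 promoter motifs. All motifs were listed before differentiation in 6 of these genes, and those with the most reads among them were Mei1 (10, 9 and 9 of 10 motifs), Sohlh1 (6 of 6 in each library) and Sycp2 (7 of 7 in each library), which act in meiotic recombination, in the transcription of early germ cells and in the chromosome axis. At the lower end were Stag3, a meiotic cohesin subunit (2, 3 and 3 of 11), the RNA-binding protein gene Boll, a relative of Dazl (3, 5 and 7 of 18), and Msh5 (0, 1 and 1 of 5). The 3 genes at the lower end had high CpG starts and the 3 at the upper end intermediate ones. Of the 33 genes, 11 had a high, 18 an intermediate and 4 a low CpG start, so the list differs from the 10 genes in CpG content. Of 48 genes with at least 30 promoter reads, 8 were 2-fold higher and 1 lower in the untreated, and 6 higher and 1 lower in the treated than in the undifferentiated library. This is 16.7% and 12.5% higher, against 22.2% and 34.9% of all promoters. Between the treated and untreated libraries 3 were higher and 2 lower (6.25% and 4.17%, against 20.8% and 4.11%). The median log2 ratios were 0.05, 0.17 and 0.10, against 0.33, 0.49 and 0.06 for the 10 genes.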

How the data were processed

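Undifferentiated, untreated and treated cells gave 1 MethylRAD library each. The authors trimmed the reads (checked with FastQC, version 0.11.3 in the submitters' processing notes, where the methods name another), mapped them to GRCm38 with Bowtie2 2.3.3, kept uniquely mapped reads and deposited the raw count of each site with 5 reads or more. The RPM column that the authors deposited divides this count by all mapped reads and served here as an alternative scaling.

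From these lists, CCGG rows in or within 5 kb of the 10 genes were taken and set against every CCGG motif of the reference. Distances were measured from the first CpG cytosine of the motif to GENCODE basic start sites of release M21. Motifs not listed counted as 0 reads in sums, as 4 reads in ratios of single sites, and a promoter at 0 reads would have been set at 3 reads. Shares have Wilson, sums exact Poisson and ratios exact conditional binomial 95% intervals. A promoter or site was called past 2-fold when it had at least 30 reads summed over the libraries. All 10 genes are named. For each gene, the promoter site nearest the main start and the one with the most reads are described, with some of the other sites past 2-fold. The 3 highest and 3 lowest genes of the 50 other germline genes are named, by their share of listed promoter motifs in the undifferentiated library among genes with at least 5 motifs, with ties broken by reads. Other sites in the sequences shown, and sites under 30 reads, were chosen after their values were seen. The genes, lists and limits were chosen with earlier results of these data known.

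Alternatives were other scalings, other promoter windows, 1 start per gene, a cutoff of 10 reads, absent rows at 4 reads, thinned counts, sites near other genes left out and unique motifs alone. Added later were single counting of sites within 10 bp, unique motifs and very deep sites left out for the promoter to body ratio, and at least 100 reads. Region assignment and intervals were tested on simulated data, where 100% of 60000 positions were assigned rightly and 96.0% of 1000 ratio intervals held the true ratio. Scripts ran in Python 3.11.15 with SciPy 1.17.1, pandas 2.3.3, numpy 2.4.6 and, for plots, matplotlib 3.10.9. The CCWGG rows were left out of the comparisons. Near the 10 genes, their CCAGG counts were equal between the undifferentiated and untreated lists and their CCTGG counts in all lists.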

Additional observations from a re-analysis of the deposited data

Results flagged for a closer look

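For CCAGG, a motif outside the CCGG comparisons, the treated list differed from the undifferentiated and untreated lists, which were equal to each other near the 10 genes. Over all motifs, the undifferentiated, untreated and treated lists held 1408466, 1421071 and 2055181 sites. The paper, however, reports the most CCWGG sites for the untreated library and the fewest for the undifferentiated one. The untreated list is thus the one that departs from the paper, and what the longer treated list reflects was not tested. In or within 5 kb of the 10 genes, 152 CCAGG sites were listed there, with 5 to 31 per gene, against 34 in the undifferentiated library. The 34 CCAGG sites of the undifferentiated and untreated lists were the same and carried equal counts at all 34, as did the 47 CCTGG sites of all 3 lists. Of the 28 CCAGG sites common to the treated and undifferentiated lists, 3 had equal counts. At the CCGG motifs of the 10 genes, counts were equal at 1 of 136 motifs listed in both the undifferentiated and untreated libraries and at 5 of 137 for the undifferentiated and treated libraries. The origin of the equal CCWGG counts was not tested.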

How the results depend on the processing

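Under the alternatives, 308 of 360 log2 ratios of promoter reads and 82 of 96 shares of listed motifs stayed within their intervals. Of the ratios off 0 beyond counting error, 3 changed sign: that summed over the genes for treated over undifferentiated (-0.26) and that of Dazl for treated over untreated (-0.0048) when scaled to mapped reads, and that of Asz1 for treated over untreated upstream only (0.22). Under a cutoff of 10 reads, the promoter motifs listed were 40.9%, 55.9% and 50.5% in the undifferentiated, untreated and treated libraries. Scaled to mapped reads, the log2 ratios summed over the genes were 0.015 (untreated over undifferentiated), -0.26 (treated over undifferentiated) and -0.28 (treated over untreated), and 13 of 30 ratios of single genes changed sign. Within 500 bp of the start, the first 2 ratios were 0.47 and 0.62.

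The ratio of promoters to bodies and flanks per motif was 0.611, 0.833 and 0.949 in the 3 libraries with the promoter within 500 bp, and 0.75, 0.931 and 1.03 without sites near other genes' starts. With a cutoff of 10 reads it was 0.746 (undifferentiated) and 0.998 (treated), with absent rows at 4 reads 1.01 (treated), and with unique motifs alone, added after seeing the data, 0.571, 0.710 and 0.777.

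The number of promoters 2-fold higher in the untreated than in the undifferentiated library was 2 within 500 bp and 2 with a cutoff of 10 reads. For treated over undifferentiated it was 3 within 500 bp, 3 upstream only, 3 with a cutoff of 10 reads, 0 scaled to mapped reads and 0 with absent rows at 4 reads, and 1 promoter (Asz1) was 2-fold lower when scaled to mapped reads. For treated over untreated, 1 was higher upstream only. No paired analysis was possible because each condition had 1 library.

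Depth limits the values near the minimum of 5 reads, since a motif not listed can hold up to 4 reads. The lists differ in CCGG reads, and with 1 library per condition only counting error is given.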
